A study of Mus musculus with 12 samples.

Results

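The genes described here are 7 dual-specificity phosphatase genes (Dusp1, Dusp2, Dusp3, Dusp4, Dusp5, Dusp6 and Dusp16) and 3 genes of the Sprouty and Spred families (Spry1, Spry2 and Spred1), chosen by symbol as feedback inhibitors of MAP kinase signalling. All 10 were among the 24421 symbols in the table, and 9 were among the 11468 genes with enough counts to be tested. Spry1 was not. Bulk RNA came from macrophages (BMDMs) that had been differentiated from C57BL/6 bone marrow in 100 ng/mL M-CSF over 5 days, with the medium changed on day 3. The BMDMs received iBET (I-BET151, an inhibitor of the BET bromodomain proteins) at 5.0 µM or the solvent DMSO (5% per the labels), and either ovalbumin alone (Ova) or ovalbumin bound in an immune complex with IgG (IC), for 4 hours. Drug and stimulus were simultaneous according to the labels, whereas in the methods of the study the drug preceded, and which order applied is not settled. The 4 groups, called DMSO Ova, DMSO IC, iBET Ova and iBET IC, each held 3 libraries, replicates A to C. The same letter was taken as the same mouse in every group. Cells without any added protein or solvent are not analysed here. IC was therefore compared with soluble antigen, not with resting cells.

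Libraries held between 7549849 and 17387639 counts. The DMSO Ova library of mouse A stood apart, with 77.4% of its counts on the ribosomal precursor Rn45s against 1.41 to 7.83% in the other 11, which left it 1768133 counts on other genes. For the members, the log2 differences of the main fit that use this shallow library are given below with and without it. Results for other genes and from alternative methods are given with it only. All 8 macrophage markers examined (Adgre1, Csf1r and Cd68 among them) were above 1 CPM (counts scaled to a common library size) in every group, and their sum was 6325 to 8484 CPM. The neutrophil list summed to between 5.65 and 35.1 CPM over the libraries, and 7 other lists, those of T cells and dendritic cells among them, summed to at most 1.45 CPM. Levels in bulk RNA cannot tell fewer expressing cells from less RNA per cell.

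MAP kinases (ERK, p38 and JNK) are switched on by phosphorylation of a threonine and a tyrosine, and the dual-specificity phosphatases remove both phosphates. Many of the phosphatase genes are themselves induced by MAP kinase activity, which closes a negative feedback loop, and they differ in location and in the kinase they prefer. Sprouty and Spred proteins act further upstream, between receptor and Ras or Raf, and dampen the ERK arm. In macrophages the cascade is engaged by Fc gamma receptors and Toll-like receptors, and Dusp1 is known for limiting inflammatory cytokine output.

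The members lie on separate loci. On GRCm38, Dusp6 was at chr10:99263231-99267489, Spred1 at chr2:117121374-117182279, Dusp4 at chr8:34807297-34819894, Dusp2 at chr2:127336159-127338376 and Spry2 at chr14:105891947-105896819, and none of these overlapped another annotated gene. Dusp5 (chr19:53529109-53542431), Dusp3 (chr11:101971143-101987013), Dusp16 (chr6:134715468-134792625) and Spry1 (chr3:37639947-37644598) each overlapped a gene on the opposite strand. The annotated span of Dusp1 (chr17:26505590-26562128) also overlapped Ergic1 and a pseudogene on the other strand, and 2 annotated genes on its own strand. The use of strand in counting was not stated. For Dusp1, Dusp3, Dusp5 and Spry1, exon sequence lay in the span of an overlapping gene, and reads there may not be separable. Whether the exons of that other gene also overlapped was not examined. Dusp16 shared no exon with its partner. RefSeq (GRCm38.p6) windows of 250 bases before the start were found for 9 members, all except Dusp4. They were searched on both strands for the CRE (TGACGTCA, in 1.55% of all 32851 windows of that length), the AP-1 site (TGANTCA, 6.75%), the CArG box (1.47%), the ETS site (CCGGAAGT, 2.88%), the kappa B site (3.90%), the SP1 site (GGGCGG, 32.7%), the E-box (CACGTG, 6.02%) and the TATA box letters (TATAAA, 12.4%). The 4 windows printed here are those of the members with the largest iBET changes in opposite directions (Dusp6 and Spred1) and of a pair that followed each other across libraries (Dusp1 and Dusp5), each ending before the first annotated exon base of its gene, which leaves 203 of the 250 searched bases for Dusp1 and 214 for Dusp5. They run 5′ to 3′ on the strand of the gene, at chr10:99262981-99263230 (plus), chr2:117120821-117121070 (plus), chr17:26508520-26508722 (minus) and chr19:53528895-53529108 (plus). Capitals mark the CRE and the E-box in Dusp1 and 2 adjoining CArG boxes in Dusp5, and SP1 sites are left in lower case.
Dusp6: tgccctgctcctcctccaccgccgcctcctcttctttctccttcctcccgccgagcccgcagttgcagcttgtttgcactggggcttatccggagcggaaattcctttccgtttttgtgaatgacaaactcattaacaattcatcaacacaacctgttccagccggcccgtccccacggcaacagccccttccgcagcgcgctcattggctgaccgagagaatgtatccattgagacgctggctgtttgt
Spred1: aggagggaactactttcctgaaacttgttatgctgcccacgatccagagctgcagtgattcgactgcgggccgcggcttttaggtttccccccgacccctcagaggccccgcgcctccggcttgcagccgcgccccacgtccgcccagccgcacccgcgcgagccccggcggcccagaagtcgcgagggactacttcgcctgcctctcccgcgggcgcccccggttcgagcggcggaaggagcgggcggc
Dusp1: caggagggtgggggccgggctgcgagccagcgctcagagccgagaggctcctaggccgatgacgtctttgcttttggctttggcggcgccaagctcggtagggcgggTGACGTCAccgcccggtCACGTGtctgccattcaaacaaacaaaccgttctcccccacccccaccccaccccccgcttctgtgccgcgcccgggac
Dusp5: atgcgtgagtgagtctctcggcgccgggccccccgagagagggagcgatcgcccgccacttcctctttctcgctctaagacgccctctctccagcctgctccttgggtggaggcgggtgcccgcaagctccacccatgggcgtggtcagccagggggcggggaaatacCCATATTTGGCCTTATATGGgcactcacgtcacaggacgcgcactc
The Dusp6 window held none of the 8 motifs, as did that of Spry2. SP1 sites were present in the windows of 7 members (2 sites in Spred1, 3 in Dusp1, of which 1 lies past the printed stretch, and 1 in Dusp5), the CRE in 1 (Dusp1), the CArG box in 1 (Dusp5) and the E-box in 2 (Dusp1 and Dusp2). No AP-1, ETS, kappa B or TATA match was found in any of the 9. These are letter matches in a short window and describe neither binding nor its absence.

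Levels of different members can be compared only per length, as CPM per kilobase of annotated exon. In DMSO Ova, Spred1, which inactivates Ras by bringing neurofibromin to the membrane, stood first at 59.6 ± 3.36 (SD, n = 3), followed by Dusp4 at 51.2 ± 4.92 and Dusp3 at 43.3 ± 2.69 CPM per kilobase. The ranges of the first pair overlapped, and those of Dusp4 and Dusp3 did not. Dusp1 (23.3 ± 1.44), Dusp6 (18.7 ± 0.688), Spry2 (12.7 ± 3.05) and Dusp5 (10.9 ± 1.45) followed, with overlap only between Spry2 and Dusp5. Dusp16 (1.77 ± 0.808) and Dusp2 (0.593 ± 0.117) were low, and Spry1 was at the edge of detection with 0, 0 and 3 counts. The order was not the same in every group. Dusp6 ranked 5 in DMSO Ova and 6 in DMSO IC (14.4 ± 1.43), but 1 in iBET Ova (49.7 ± 6.71), overlapping Dusp3, and 2 in iBET IC (48.4 ± 2.48), where its range overlapped those of Dusp4 and Dusp3. Spred1 ranked 1 or 2 in the DMSO groups and 4 in both iBET groups (32.1 ± 4.61 in iBET Ova and 39.0 ± 2.11 in iBET IC).

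**Figure D1:**
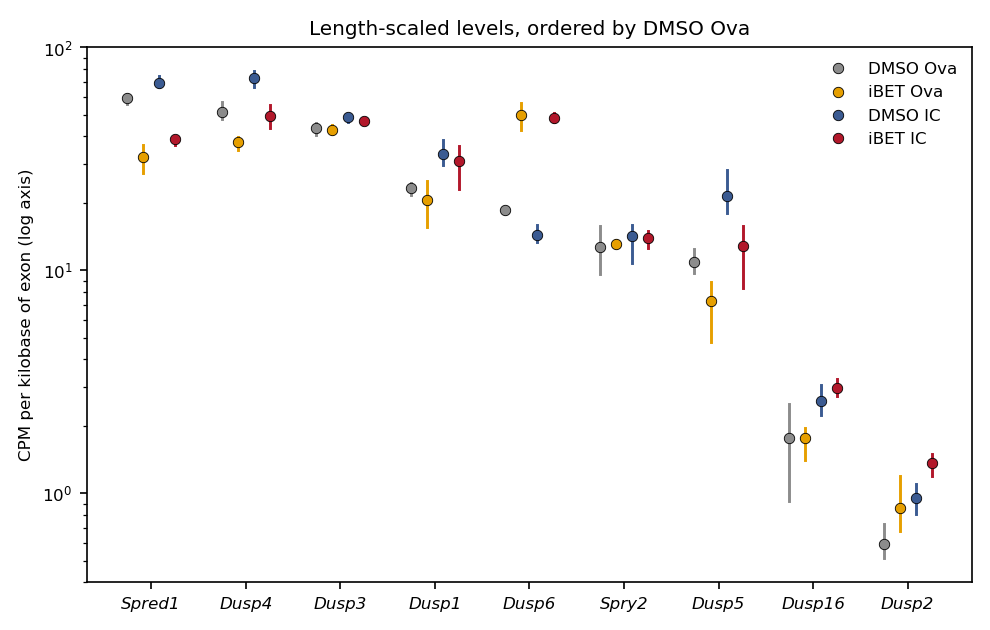
Length-scaled level (CPM per kilobase of exon, log axis) of the 9 tested members in the 4 groups, with the mean as a point and the lowest to highest of 3 libraries as a line. Dusp6 moves from 18.7 in DMSO Ova to 49.7 in iBET Ova, while Spred1 moves from 59.6 to 32.1.

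The first question was how iBET altered these genes under each stimulus. Under both, Dusp6 was higher with iBET, Spred1 and Dusp4 were lower, and the other 6 tested members did not pass the test. In Ova, 3 of the 9 tested members were called at an adjusted p under 0.05 (edgeR's quasi-likelihood test with Benjamini-Hochberg adjustment over all genes tested), against 31.3% of all genes tested. Of the members, 1 was higher, against 17.1% of all genes, and 2 were lower, against 14.2%. In IC, 3 of 9 were called, against 34.8% of all genes, with 1 higher (19.0% of all genes) and 2 lower (15.8%). The 3 genes were the same under both stimuli. The share called was thus close to that of all genes, and the median log2 fold change of the 9 was -0.10 in Ova and -0.06 in IC, against 0.02 and -0.00 for all genes. The Ova median includes the shallow library and is the value of Dusp16, which was -0.35 without that library. iBET and DMSO libraries did not overlap for 4 members in Ova (45.1% of all genes) and for 5 in IC (48.6% of all genes).

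Dusp6 encodes the cytoplasmic phosphatase that acts selectively on ERK. In Ova its level was 56.0, 59.9 and 59.5 CPM in the DMSO libraries of mice A, B and C and 176, 157 and 134 CPM in their iBET libraries. Every iBET library was above every DMSO library. The log2 fold change was 1.41 (SE 0.12, adjusted p = 4.19e-06 by edgeR), a 2.66-fold rise with a 95% interval of 2.23 to 3.16, and it was positive in 3 of 3 mice. Without the shallow library it was 1.33 (adjusted p = 1.85e-05). In IC, Dusp6 was at 43.2, 41.8 and 50.1 CPM in DMSO and at 151, 144 and 160 CPM in iBET. The lowest iBET value was again well above the highest DMSO value. The log2 fold change was 1.75 (SE 0.11, adjusted p = 7.29e-07 by edgeR), a 3.37-fold rise with an interval of 2.83 to 4.00.

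Spred1 was the member with the largest fall. In Ova it was at 420, 378 and 416 CPM in DMSO and at 247, 222 and 185 CPM in iBET, with no overlap. The log2 fold change was -0.89 (SE 0.11, adjusted p = 0.000101 by edgeR), and -0.91 (adjusted p = 0.000195) without the shallow library. In IC the values were 460, 507 and 449 CPM in DMSO and 273, 273 and 248 CPM in iBET, again with separate groups. The log2 fold change was -0.83 (SE 0.11, adjusted p = 0.000138 by edgeR), and it was negative in 3 of 3 mice under both stimuli. The calls of Dusp6 and Spred1 were kept under both stimuli when any 1 library or any 1 mouse was left out.

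Dusp4 encodes a nuclear phosphatase for ERK and JNK that is induced by MAP kinase activity. In IC it was at 204, 214 and 183 CPM in DMSO and at 133, 151 and 119 CPM in iBET. All iBET values lay below all DMSO values. The log2 fold change was -0.57 (SE 0.12, adjusted p = 0.00222 by edgeR), and the call was kept when any 1 library or mouse was left out. In Ova the values were 131, 156 and 133 CPM in DMSO and 108, 108 and 94.8 CPM in iBET, also without overlap. The fall was smaller, at -0.44 (SE 0.12, adjusted p = 0.0126), and -0.53 (adjusted p = 0.00670) without the shallow library. Dusp4 was no longer called in Ova when mouse B was left out of DMSO Ova (adjusted p = 0.0607), mouse C out of iBET Ova (0.0514), mouse B out of all groups (0.132) or mouse C out of all groups (0.0782).

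Dusp5 encodes a nuclear phosphatase that acts on ERK alone and is a classical early response gene. In IC it was at 44.9, 69.9 and 45.1 CPM in DMSO and at 39.0, 36.0 and 20.6 CPM in iBET, and in Ova at 25.7, 31.0 and 24.1 CPM in DMSO and at 21.8, 20.4 and 11.8 CPM in iBET. The groups did not overlap under either stimulus, and within both iBET groups mouse C was the lowest. The log2 difference was -0.73 in IC (SE 0.28, adjusted p = 0.0604) and -0.58 in Ova (SE 0.29, adjusted p = 0.155), neither of which passed. With mouse as a block both passed, at -0.75 (adjusted p = 0.00378) in IC and -0.63 (adjusted p = 0.0181) in Ova. The block raised the number of members called to 4 of 9 in each, while the share of all genes called became 42.1% in IC and 38.3% in Ova. The IC difference of Dusp5 also passed without a block by DESeq2 (-0.77, adjusted p = 0.0266), by limma on the normalized signal (-0.79, adjusted p = 0.04998), and by edgeR when mouse C was left out of iBET Ova (adjusted p = 0.0364).

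The other nuclear phosphatases did not pass. Dusp1, which prefers p38 and JNK and is the best known of the family in macrophages, was at 78.1, 81.4 and 72.0 CPM in DMSO Ova and at 83.6, 71.0 and 51.7 CPM in iBET Ova. In IC it was at 98.1, 127 and 106 CPM in DMSO and at 111, 120 and 76.7 CPM in iBET. The groups overlapped under both stimuli. The log2 difference was -0.16 in Ova (95% interval -0.58 to 0.25) and -0.10 in IC (-0.51 to 0.30). The Ova interval included the Dusp4 value, and the IC interval ended short of it. Dusp2, a nuclear phosphatase of haematopoietic cells, was at only 1.03 to 3.00 CPM over all libraries (2 to 53 counts), and its difference with iBET was 0.50 in Ova and 0.52 in IC, neither of which passed.

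Dusp3 and Dusp16 complete the phosphatases. Dusp3, a small phosphatase without a kinase-docking domain, was the steadiest member, at 191 to 235 CPM over the 12 libraries, with a log2 difference with iBET of -0.02 in Ova (-0.21 to 0.17) and -0.06 in IC (-0.24 to 0.13). Its interval is the narrowest among the 9 and does not reach the change measured for Dusp4. Dusp16, which acts on JNK and p38, was at 7.19, 14.5 and 19.7 CPM in DMSO Ova, where mouse A, the shallow library, had 14 counts. It was at 15.2, 11.0 and 15.3 CPM in iBET Ova. The groups overlapped. The difference was -0.10 in Ova, -0.35 without that library (adjusted p = 0.222) and 0.19 in IC (adjusted p = 0.581).

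Without the shallow library the differences with iBET in Ova were -0.21 for Dusp1, 0.42 for Dusp2, -0.11 for Dusp3, -0.66 for Dusp5 and 0.18 for Spry2, and none of these passed. Among the Sprouty genes, Spry2 (which restrains Ras and Raf below growth factor receptors) was at 20.1 to 33.4 CPM over all libraries. The difference with iBET was 0.09 in Ova (-0.32 to 0.49) and -0.03 in IC (-0.41 to 0.36), and all groups overlapped. Spry1, of the same family, had 0, 0 and 3 counts in DMSO Ova, 2, 2 and 1 in iBET Ova, 1, 1 and 1 in DMSO IC and 12, 4 and 5 in iBET IC. It was highest in all 3 iBET IC libraries. The summed counts of 21 in iBET IC and 3 in DMSO IC gave a ratio of 5.89 per library size, with an exact 95% interval of 1.76 to 30.8 that covers counting error only. Spry1 was below the count minimum, and when it was admitted by fitting all genes without a filter its adjusted p for iBET against DMSO in IC was 0.04995 (edgeR), at the very edge of the threshold.

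**Figure D2:**
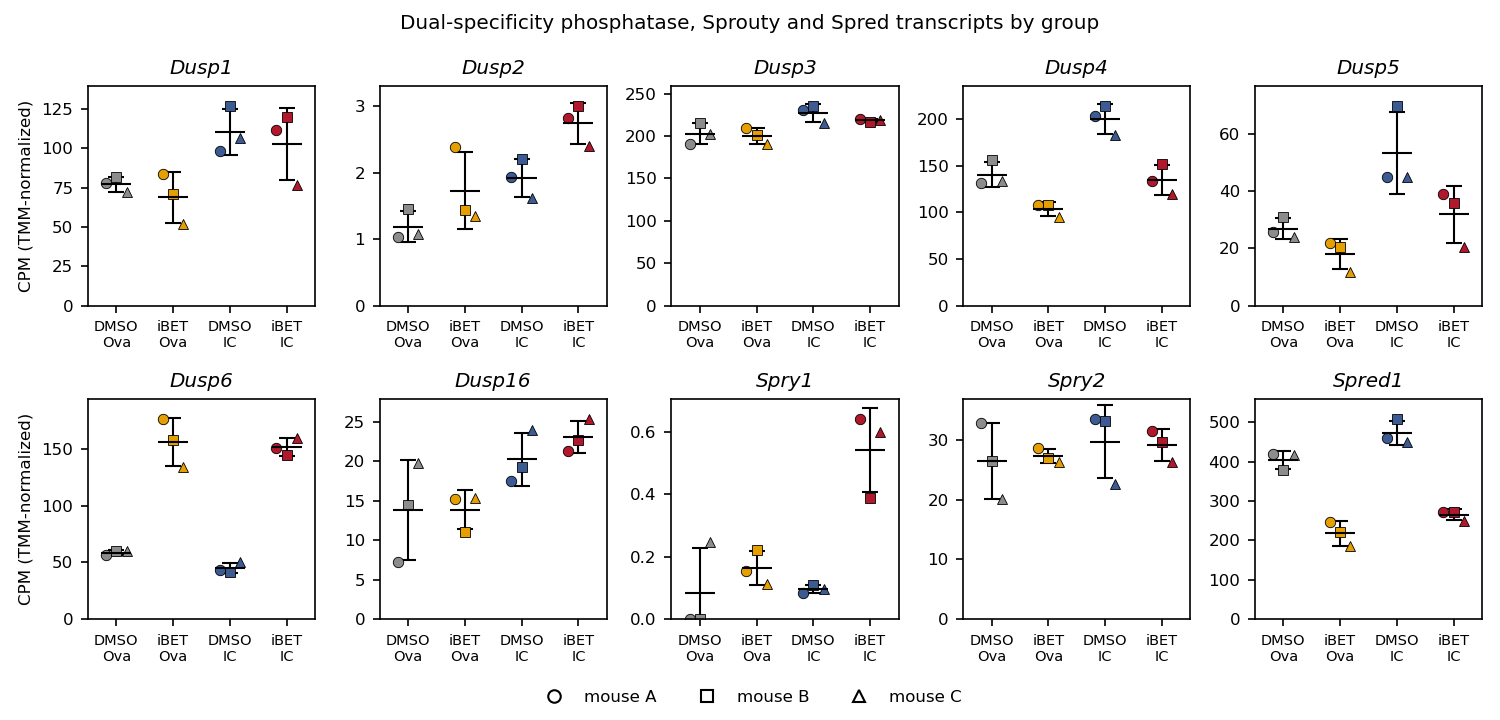
Level (CPM, linear axes from 0) of each of the 10 members in the 12 libraries, with 1 point per library, the marker giving the mouse and the bar the mean ± SD of 3. The iBET libraries of Dusp6 lie at 134 CPM or more and its DMSO libraries at 59.9 or less, Spred1 shows the opposite order, and Dusp4 and Dusp5 are highest in DMSO IC.

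**Figure D3:**
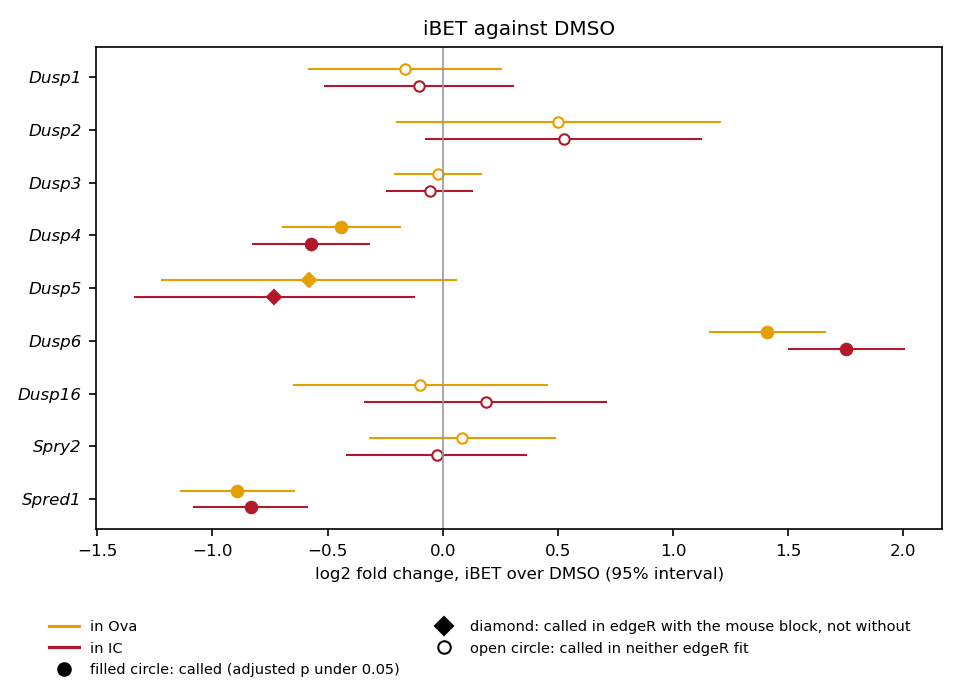
Log2 fold change of iBET over DMSO for the 9 tested members, in Ova and in IC, with 95% intervals from the edgeR fit. Dusp6 (1.41 and 1.75) lies to the right of 0, Spred1 (-0.89 and -0.83) and Dusp4 (-0.44 and -0.57) lie to the left, and Dusp5 is called by edgeR with mouse as a block but not without.

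The second question was what IC did beyond soluble ovalbumin. Without drug, no member passed the test by edgeR (0 of 9, against 1.22% of all genes tested), while 4 had an unadjusted p under 0.05 (Dusp1, Dusp4, Dusp5 and Dusp6), against 11.7% of all genes. With mouse as a block, 2 were called, Dusp4 and Dusp5, against 2.75% of all genes. DESeq2 called the same 2 (2.36% of all genes), and DESeq2 with the block called 3, adding Dusp1 (3.86% of all genes). IC and Ova libraries did not overlap for 7 of the 9, against 15.3% of all genes, with Dusp6 lower in IC and Dusp1, Dusp2, Dusp3, Dusp4, Dusp5 and Spred1 higher. For Dusp3 the groups almost touched, with the highest Ova library at 215.7 CPM and the lowest IC library at 215.8 CPM. Dusp2 had 2 to 19 counts in the Ova libraries and 17 to 23 in the IC libraries. The median log2 difference of the 9 was 0.45, against -0.01 for all genes. This median includes the shallow library and is the value of Dusp16, which was 0.22 without that library. The DMSO Ova libraries of this comparison were also the controls for iBET in Ova, and the DMSO IC libraries those for iBET in IC, so the comparisons are not independent of each other.

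Dusp5 had the largest difference, from 26.9 ± 3.59 CPM in DMSO Ova to 53.3 ± 14.4 CPM in DMSO IC (SD, n = 3), with the mouse B library at 69.9 CPM above the other IC values. The log2 difference was 0.97 (SE 0.29, adjusted p = 0.157), and 0.94 with the block (adjusted p = 0.0144). It was positive in 3 of 3 mice, at 0.80, 1.17 and 0.90. Dusp4 went from 140 ± 13.5 to 200 ± 16.1 CPM, a log2 difference of 0.51 (SE 0.12, adjusted p = 0.0601) that became 0.51 with an adjusted p of 0.00753 with the block. Without the shallow library, the differences in the fit without the block were 0.93 for Dusp5 (adjusted p = 0.276) and 0.45 for Dusp4 (adjusted p = 0.139). Dusp1 stood at 77.2 ± 4.76 and 110 ± 14.8 CPM, a difference of 0.52 (SE 0.19, adjusted p = 0.273, and 0.0838 with the block). Dusp6, which acts in the cytoplasm, differed the other way, at 58.5 ± 2.15 CPM in DMSO Ova and 45.0 ± 4.47 CPM in DMSO IC. Its difference was -0.38 (95% interval -0.63 to -0.13, adjusted p = 0.160), negative in 3 of 3 mice, and -0.43 without the shallow library (adjusted p = 0.152). The remaining differences were 0.62 for Dusp2, 0.45 for Dusp16 (0.22 without that library), 0.22 for Spred1, 0.21 for Spry2 and 0.16 for Dusp3. Without the shallow library they were 0.56 for Dusp2, 0.23 for Spred1, 0.32 for Spry2 and 0.10 for Dusp3, with 0.50 for Dusp1.

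Under iBET, again no member passed by edgeR (0 of 9, against 0.349% of all genes), and the block changed no call (0 of 9, against 0.741%). An unadjusted p under 0.05 was reached by 6 (Dusp1, Dusp2, Dusp4, Dusp5, Dusp16 and Spred1), against 7.50% of all genes. DESeq2 called none (1.12% of all genes) and DESeq2 with the block called 4, namely Dusp1, Dusp4, Dusp5 and Dusp16 (1.60% of all genes). IC and Ova libraries did not overlap for 5 of 9, against 18.9% of all genes, and the median difference was 0.38, against -0.01. The largest was again Dusp5, at 0.82 (SE 0.28, adjusted p = 0.454), with 0.83, 0.82 and 0.79 in the 3 mice. Each mouse thus had nearly the same Dusp5 difference, although the groups overlapped because mouse C was low in both. Dusp16 differed by 0.73 (SE 0.25, adjusted p = 0.432), and passed in edgeR without mouse A (0.89, adjusted p = 0.0481). Dusp4 differed by 0.38, Dusp1 by 0.58, Dusp2 by 0.64 and Spred1 by 0.28. Dusp6 showed -0.04 (95% interval -0.28 to 0.20), with mouse C positive and the other 2 mice negative.

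**Figure D4:**
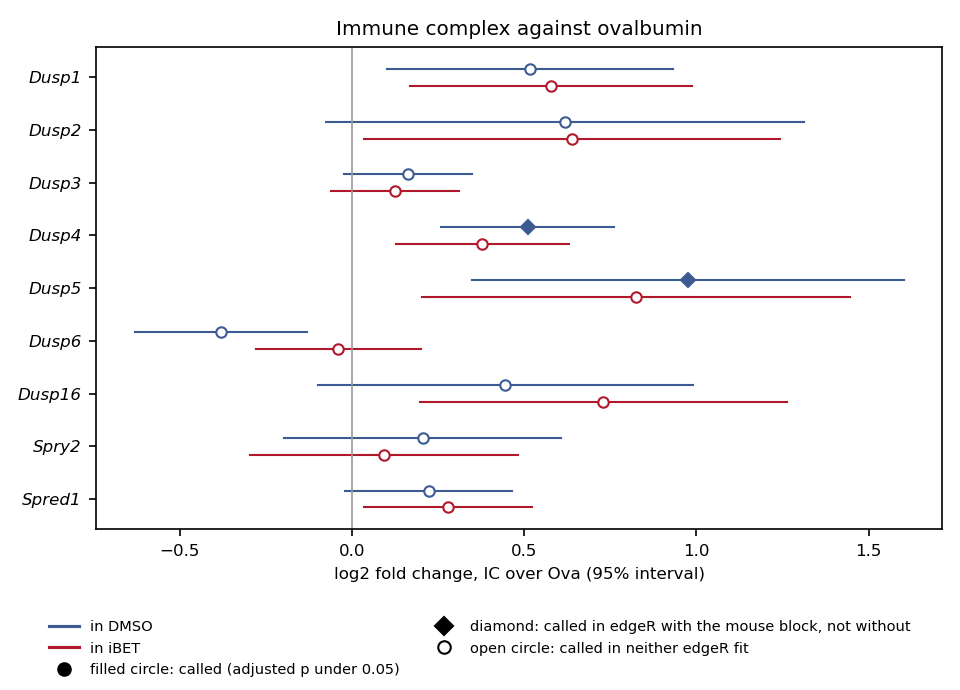
Log2 fold change of IC over Ova for the 9 tested members, in DMSO and in iBET, with 95% intervals from the edgeR fit without a block. In edgeR with all 12 libraries no member is called without the block, Dusp4 (0.51) and Dusp5 (0.97) are called with it in DMSO, and Dusp6 (-0.38 and -0.04) is the one member to the left of 0.

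Whether iBET altered the IC response was tested by the interaction, the difference between the IC responses of the iBET and the DMSO arm. No member was called by edgeR or by DESeq2 (0 of 9, against 0% of all genes tested by edgeR), and 0 had an unadjusted p under 0.05, against 2.55% of all genes. Dusp6 came nearest, at 0.34 (SE 0.16, 95% interval -0.00 to 0.69, unadjusted p = 0.0528, adjusted p = 1.00), with a positive value in 3 of 3 mice. For Dusp4 and Dusp5 the interaction was -0.13 (-0.49 to 0.22) and -0.15 (-1.03 to 0.73). With mouse as a block they were -0.13 (-0.40 to 0.13) and -0.12 (-0.67 to 0.42). All 4 intervals included 0, and those of the blocked fit did not reach a fall as large as the IC response of either gene in DMSO (0.51 and 0.94 with the block). In the main fit, without the block, the Dusp5 interval did reach a fall as large as its IC response in DMSO (0.97). That of Dusp4 ended just short of its response (0.51). Without the shallow library the interaction, in the fit without the block, was 0.40 for Dusp6, -0.06 for Dusp4 and -0.10 for Dusp5. In levels, Dusp4 was at 135 ± 16.1 CPM in iBET IC beside 140 ± 13.5 CPM in DMSO Ova, and Dusp5 at 31.9 ± 9.88 beside 26.9 ± 3.59 CPM. With both agents these genes stood near the level of DMSO Ova, whereas Dusp6, at 152 ± 7.75 CPM, and Spred1, at 265 ± 14.3 CPM, stood far from theirs (58.5 ± 2.15 and 405 ± 22.8 CPM). This pair of groups was not tested.

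The transcripts of a cytoplasmic and a nuclear phosphatase, Dusp6 and Dusp4, can be set against each other within each library as a per-length ratio. Both genes were called with iBET in opposite directions, so a higher ratio with iBET follows from those calls. The ratio is of RNA and gives neither protein nor phosphatase activity. It was 0.372, 0.336 and 0.390 in DMSO Ova and 0.185, 0.171 and 0.240 in DMSO IC. With iBET it was 1.42, 1.28 and 1.24 in Ova and 0.989, 0.835 and 1.17 in IC. Every iBET library was above every DMSO library, and within each drug arm every IC library was below every Ova library. The ratio combines differences given above and was not tested separately.

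Across the 12 libraries the members fell into few patterns, given here as a description since the libraries share groups and mice. Dusp4 and Dusp5 had a Pearson r of 0.93 in log2 CPM, Dusp1 and Dusp5 of 0.92, and Dusp4 and Spred1 of 0.86. Dusp6 ran opposite to Spred1 (-0.93) and to Dusp4 (-0.79). Of the 36 pairs among the 9, 8 had an r below 0 and 2 were above 0.9. Spry2 had an r of -0.03 with Dusp6 and of 0.08 with Spred1. Among all genes with a mean count of at least 50, those closest to Dusp6 were Sh2b3 and Taf2 (both 0.99), and those closest to Spred1 were Tmem26 and Atf1 (both 0.99). Slc7a2 and Orai2 (both 0.98) were closest to Dusp4, and Chst11 (0.98) and Alkbh1 (0.94) to Dusp5. The closest genes to Dusp1 were Lasp1 (0.94) and Slc35b3 (0.93), to Dusp2 Eaf1 (0.95) and P2ry2 (0.94), to Dusp3 Ralgds (0.94) and Cnot7 (0.93), to Dusp16 Ppap2c and B3galnt2 (both 0.93), and to Spry2 Pcyt1a and Ppp4r2 (both 0.85).

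**Figure D5:**
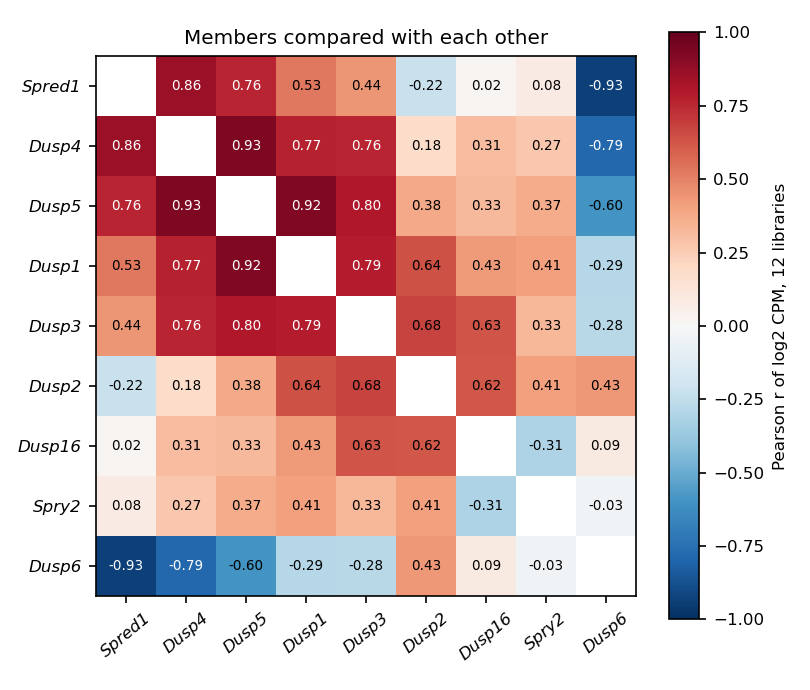
Pearson correlation of log2 CPM between the 9 tested members over 12 libraries, with red for positive and blue for negative values. Dusp4, Dusp5 and Dusp1 are positively related (0.77 to 0.93), and Dusp6 is negatively related to Spred1 (-0.93) and Dusp4 (-0.79).

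The rest of the pathway gives the setting for these members, and its counts with iBET in IC stand against 19.0% of all genes called higher and 15.8% called lower. With iBET in IC, of the 3 tested phosphatases of the same class, Dusp10 rose (1.23, SE 0.26) and Dusp9 fell (-1.60, SE 0.26), and Dusp7 did not pass. Of 7 tested atypical Dusp genes, 2 rose (Dusp23 by 0.95 and Dusp22 by 0.47) and 1 fell (Dusp18, -1.38). Dusp23 was low, at 0.99 CPM in DMSO IC and 2.00 CPM in iBET IC (adjusted p = 0.0424 by edgeR). With DESeq2 size factors, a scaling added after the data were seen, 1 of the 7 rose and 1 fell. Of the 2 other Sprouty and Spred genes tested, Spred3 fell (-1.12, SE 0.36). Of 18 genes of the Ras-ERK core, 4 rose, among them Ksr1 (1.31), a scaffold of the cascade, and Sos1 (0.76), which loads Ras with GTP, and 1 fell (Braf, -0.30). Of 14 tested genes of the p38 and JNK arm, 9 rose and 0 fell, led by Mapk8 (0.95) and Map2k4 (0.83), which encode JNK1 and its activator, with a list median of 0.38 against -0.00 for all genes. In Ova, 8 of these 14 rose and 0 fell, against 17.1% and 14.2% of all genes. With other scalings or with mouse as a block, added after the data were seen, the counts in IC were 8 or 9 higher and 1 lower. Of 10 other brakes on Ras, 3 rose, led by Rasal2 (1.29) and Rasa3 (0.64), and 1 fell (Rasa1, -1.01).

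Genes commonly used as readouts of ERK activity did not move in 1 direction with iBET. In IC, 5 of 12 tested rose, led by Ier3 (3.15, SE 0.18) and Egr1 (3.03, SE 0.19), and 5 fell, led by Egr2 (-2.87, SE 0.40) and Myc (-2.27, SE 0.24), and in Ova the counts were also 5 and 5. Etv5, an ETS factor whose transcript follows ERK activity, rose by 1.34 beside Dusp6, and it was 1 of the 2 genes of all these lists called for IC against Ova in DMSO, where it fell (-0.65, adjusted p = 0.0350 by edgeR). The other was Errfi1, a feedback inhibitor of the EGF receptor, which rose by 1.03 (adjusted p = 0.00297). Phosphorylation of ERK, p38 or JNK was not measured in these libraries, and transcript levels do not give it.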

How the data were processed

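BMDM RNA was sequenced in 12 libraries, 4 groups of 3, grouped by the treatment and stimulation of the labels, with replicates A to C in each. The count table was deposited by the authors, who trimmed reads with Trim Galore, aligned them to mm10 with HISAT2 and counted them per gene with featureCounts. Tool versions, annotation and strand setting are not given in the sources used here. The deposited normalized signal equalled the counts divided by DESeq2 size factors (largest relative gap 4.89e-15) and was used only in an alternative.

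Counts (7549849 to 17387639 per library) were fitted in edgeR 4.0.16 (R 4.3.3) by robust quasi-likelihood with TMM factors and 1 term per group, after filterByExpr (minimum count 10), which kept 11468 genes. There were 5 contrasts, each with two-sided p-values adjusted by Benjamini-Hochberg over all genes. Calls were made where the adjusted p was under 0.05. Standard errors were obtained from the log2 fold change and its F statistic, and per-mouse changes from log2 CPM (prior count 2). The edgeR fit without a block was tried on simulated counts, for iBET against DMSO in IC only. The other contrasts and the alternatives were not tried in this way. Lengths and positions came from GENCODE vM21, and promoter windows from RefSeq.

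Alternatives were DESeq2 1.42.0, limma 3.58.1 on log2(signal + 1), 1 surrogate variable (sva 3.50.0), other scalings and filters, the compared groups alone, mouse as a block, and each library or mouse left out. The same letter was taken as the same animal in all 4 groups, which pairs the samples by mouse. The paper describes the replicates only as coming from independent mice. Deviations from group means correlated at a median of 0.26 over 18 same-mouse pairs (-0.07 to 0.54) and -0.13 over 36 pairs of different mice. The deviations of the 3 libraries of a group sum to 0, so a positive first value brings a negative second one. The second value is therefore no separate evidence for the pairing. Without a block, p-values rest on the spread between the 3 libraries within groups. With mouse as a block, they rest on the spread left after differences between mice are taken out.

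The members and lists were chosen with earlier results of these data known. Named were all members, the 2 genes most correlated with each tested member, and up to 2 rising and 2 falling called genes of each pathway list in the contrast of iBET with DMSO in IC, with any list gene called for IC against Ova.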

Additional observations from a re-analysis of the deposited data

How the results depend on the processing

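Counts of members called were within 1.5 times of those reported under every alternative run for iBET in Ova, for iBET in IC and for the interaction (which could not be fitted on the compared groups alone, as it needs all 4). For IC against Ova in DMSO the count of 0 became 2 with DESeq2, 2 with the replicate block of mouse in edgeR and 3 with the block in DESeq2. For IC against Ova in iBET it became 4 with the block in DESeq2 and ranged from 0 to 1 when a library or mouse was left out. Changes of sign were confined, in the alternatives run, to members that were not called. Outside the fits that leave out libraries there were 2, Dusp16 for iBET in Ova by limma (0.070) and the Dusp2 interaction with 1 surrogate variable (-0.011). When a library or mouse was left out, the log2 differences ranged as follows. For iBET in Ova, they were -0.35 to 0.0065 for Dusp1, -0.12 to 0.029 for Dusp3, -0.40 to 0.22 for Dusp16 and -0.092 to 0.18 for Spry2. For iBET in IC, they were -0.25 to 0.068 for Dusp1 and -0.19 to 0.058 for Spry2. For IC in iBET, Dusp6 ranged from -0.18 to 0.089. Interactions ranged from -0.11 to 0.23 for Dusp1, -0.27 to 0.40 for Dusp2, -0.10 to 0.063 for Dusp3, -0.37 to 0.093 for Dusp5, -0.031 to 0.54 for Dusp16, -0.28 to 0.066 for Spry2 and -0.058 to 0.16 for Spred1. The cause of these changes was not tested. Depth limits Dusp2 and Spry1 most. In edgeR the replicate block changed calls of Dusp4 and Dusp5 only, as given above.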
